A study of Mus musculus with 8 samples.

Results

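Genes of the motile cilium and the sperm flagellum were examined in Thy1-positive cells of the newborn mouse testis. They were taken by gene symbol: the numbered Cfap, Dnah, Dnai, Dnaaf, Rsph, Tekt and Drc genes together with Spag6, Spag16, Spag17, Hydin, Efcab10 and Dnali1. The arrays carried 93 probes for 61 such genes, of 41174 probes and 19096 named genes in all. Of the 77 matching symbols in the gene table, 16 had no named probe. The set was proposed after the genotype difference of these genes had been seen in the same arrays, so their own differences are described here without a test.

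The mutant animals carry a Glis3 mutation labelled Glis3KO2 (Glis3KO in the sample titles), and the others are wild type (WT). All are C57BL/6 mice at postnatal day 4, with 4 samples per genotype in the labels, whereas the design text speaks of 3 testes per genotype. Glis3 encodes a Krüppel-like zinc finger transcription factor, and Thy1 encodes a cell surface protein by which spermatogonial progenitors, the cell type the labels name, can be sorted. Sources used here do not say how the allele was made, whether a sample pools pups, or whether each sample is a different animal. Any p-value therefore measures the spread among these 8 arrays alone, and that spread may be technical.

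A motile cilium or flagellum is built on the axoneme, a ring of microtubule doublets around a central pair. Outer and inner dynein arms slide the doublets, radial spokes and the central apparatus coordinate the arms, and the nexin-dynein regulatory complex links neighbouring doublets. In the testis these genes are best known from spermatids, which grow a flagellum, and in the neighbouring efferent ducts from multiciliated cells, whereas most other cells carry only a single immotile primary cilium. The transcription factors Foxj1 and the RFX family are the known regulators of motile cilia genes, and RFX factors bind a sequence called the X-box.

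Every level below is the log2 of the array's background-subtracted intensity minus that array's 75th percentile, so 0 marks a bright spot for its array. Each difference is the mean of 4 Glis3KO2 arrays minus the mean of 4 WT arrays, with the standard error (SE) of the fit. A gene was kept when the scanner software called its probe well above background on 4 or more of the 8 arrays, irrespective of genotype. Of the 61 genes, 56 passed, 45 of them on all 8 arrays. Cfap221, Cfap97d1, Dnaaf4, Rsph4a and Spag17 did not, with 1 or 2 arrays each well above background.

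Across the series limma called 0 of 17512 genes at an adjusted p under 0.05, which is 0% (smallest adjusted p 0.0676). At an unadjusted p under 0.05 it called 833 genes lower (4.76%) and 377 higher (2.15%) in Glis3KO2, together 1210, and 1879 in the fit with a replicate block. The arrays had 86.0% to 90.3% of spots well above background. On the first principal component, with 32.3% of the variance, WT replicates 3 and 4 lay apart at 69.2 and 60.1, and on the second, with 20.1%, WT replicate 1 lay apart at 80.8. Glis3, the targeted gene, had -1.98, -2.18, -1.18 and -1.32 in Glis3KO2 replicates 1 to 4, against -1.09, -1.01, 0.57 and 0.60 in WT replicates 1 to 4. Its difference of -1.43 (SE 0.45) was -0.62 without WT replicates 3 and 4. No source used here says whether the probe lies within the part that the mutation alters. Thy1 averaged 1.88 ± 0.54 in Glis3KO2 and 1.23 ± 0.89 in WT (SD, n = 4 each), and its difference of 0.65 was 0.078 without the same 2 arrays.

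The cilia genes had a lower mean in Glis3KO2 more often than a higher one: 48 of the 56 kept genes were lower and 8 were higher, while 59.2% of all 17512 genes were lower. Their median difference was -0.40, beside -0.08 for all genes. With no filter on dim probes the 61 genes gave 52 lower means and a median of -0.43, beside 60.9% and -0.10 for all genes. Because the set was proposed from this contrast, nothing is read from these counts. Fewer cells that express these genes and less RNA per cell cannot be told apart in such bulk samples.

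Most of the differences were small. Of the 56 genes, 34 lay within 0.5 of 0, where 77.7% of all genes lay, and 9 lay below -1 (1.83% of all genes) and 0 above 1 (1.82% of all genes). The levels were lower in all 4 numbered pairs for 17 genes, where the share among all genes was 13.6%. For 7 genes every Glis3KO2 array lay below every WT array (2.61% of all genes), and for 0 genes every Glis3KO2 array lay above (0.902%).

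The kept cilia genes were also split at their median signal level, -2.36, and set beside all genes split at the same level. The 28 cilia genes with a mean level below -2.36 had 24 lower means and a median difference of -0.51, while of the 4823 genes of the whole series below that level 73.3% were lower, with a median of -0.27. The other 28 cilia genes also had 24 lower means, with a median of -0.29, while of the 12689 genes at or above that level 53.8% were lower, with a median of -0.03. Among the kept cilia genes, 11 had a spot not well above background on some array. Of these, 8 had more such spots in Glis3KO2, 1 had more in WT and 2 had as many in both. The same split among all genes is not given here. The set was proposed from this contrast, and a gene can pass the filter through the WT arrays alone. Nothing is therefore read from this split. The part of signal level in the result was not tested.

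**Figure D1:**
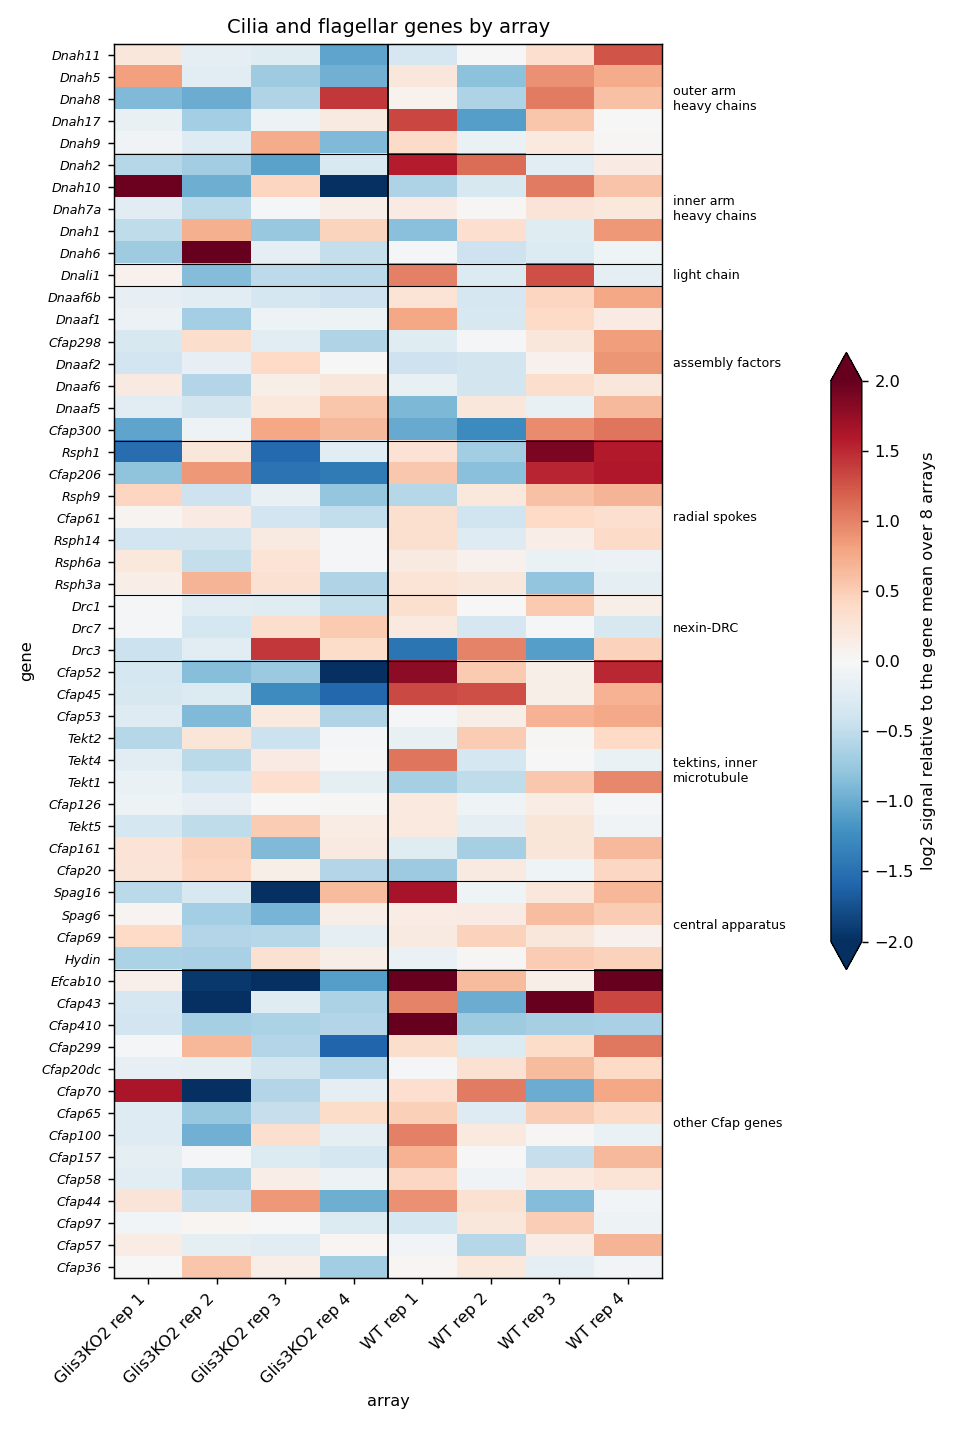
Log2 signal of the 56 kept cilia genes (rows, grouped by role) on the 4 Glis3KO2 arrays (left) and the 4 WT arrays (right), each gene relative to its own mean over the 8 arrays. Red marks a value above that mean and blue one below it, with the colour at its limit beyond 2 either way. Efcab10 is placed with the other Cfap genes. Most red lies in WT replicates 1, 3 and 4, which held the highest value of 13, 13 and 16 genes. Among all genes the same arrays held the highest value of 17.2%, 17.3% and 19.15%.

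The WT arrays did not contribute alike. WT replicates 1, 3 and 4 held the highest value of 13, 13 and 16 of the 56 genes, while WT replicate 2 held that of 2. Among all genes these arrays held the highest value of 17.2%, 17.3% and 19.15%, and WT replicate 2 that of 6.99%. Glis3KO2 replicates 2 and 4 held the lowest value of 18 and 15 genes, Glis3KO2 replicates 1 and 3 of 3 and 7. Among all genes the lowest value lay in Glis3KO2 replicates 2 and 4 for 21.3% and 11.85%, and in replicates 1 and 3 for 8.61% and 11.3%. Averaged over the 56 genes after centring each one, the list stood at -0.12, -0.33, -0.23 and -0.32 in Glis3KO2 replicates 1 to 4, against 0.31, -0.08, 0.28 and 0.48 in WT replicates 1 to 4. Every Glis3KO2 array lay below every WT array, a separation that the choice of the genes from this contrast can fix, and WT replicate 2 was the nearest to them. Without WT replicates 3 and 4 the count of lower means was 41 of 56 and the median -0.25, while 53.8% of all genes were lower.

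Efcab10, which encodes an EF-hand domain protein, had the largest difference among the kept genes on this scale, but not under normexp with quantile normalization or with no background correction, where Cfap410 was beyond it. Its levels were -3.51, -5.53, -5.92 and -4.70 in Glis3KO2 replicates 1 to 4, against -1.40, -2.97, -3.49 and -1.32 in WT replicates 1 to 4. All 4 Glis3KO2 arrays were lower, although Glis3KO2 replicate 1 and WT replicate 3 differed by only 0.018. The difference was -2.62 (SE 0.62), and the probe was well above background on 2 Glis3KO2 arrays and 4 WT arrays. Its size moved with the background correction and the scaling. With the normexp background correction it was -1.37 on the 75th percentile and -0.72 with quantile normalization, and with no background correction -0.96.

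Promoter windows of the 7 genes whose genotypes did not overlap are printed because no array of theirs fell among those of the other genotype, with Cfap43 added as a marker gene, and 53 of the 61 genes had an entry in the promoter table. Each window runs from 250 bases before the annotated start to 50 after it, on build GRCm38.p6, read 5′ to 3′ along the gene and taken from RefSeq. Capitals mark a match to an X-box spelling on either strand and, in Cfap43, to a forkhead core.
Efcab10, chr12:33394604-33394903, + strand: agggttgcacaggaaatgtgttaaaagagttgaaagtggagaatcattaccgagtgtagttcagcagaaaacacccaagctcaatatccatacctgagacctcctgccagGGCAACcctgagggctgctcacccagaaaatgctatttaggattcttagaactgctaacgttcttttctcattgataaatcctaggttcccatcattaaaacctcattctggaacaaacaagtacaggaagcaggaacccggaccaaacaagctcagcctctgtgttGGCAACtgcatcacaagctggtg
Cfap52, chr11:67965593-67965892, - strand: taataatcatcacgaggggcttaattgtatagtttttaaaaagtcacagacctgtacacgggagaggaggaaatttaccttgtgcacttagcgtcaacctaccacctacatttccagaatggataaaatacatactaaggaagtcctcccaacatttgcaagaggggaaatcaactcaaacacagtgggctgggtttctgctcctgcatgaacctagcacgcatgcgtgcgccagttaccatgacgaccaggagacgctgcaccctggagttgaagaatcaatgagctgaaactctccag
Cfap45, chr1:172520880-172521179, + strand: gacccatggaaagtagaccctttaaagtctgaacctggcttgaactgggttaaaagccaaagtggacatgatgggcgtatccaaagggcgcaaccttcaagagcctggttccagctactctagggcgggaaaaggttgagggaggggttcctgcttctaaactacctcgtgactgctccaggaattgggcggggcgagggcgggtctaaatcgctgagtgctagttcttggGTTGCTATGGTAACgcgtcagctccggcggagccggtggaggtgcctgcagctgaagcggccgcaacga
Dnah2, chr11:69549059-69549358, - strand: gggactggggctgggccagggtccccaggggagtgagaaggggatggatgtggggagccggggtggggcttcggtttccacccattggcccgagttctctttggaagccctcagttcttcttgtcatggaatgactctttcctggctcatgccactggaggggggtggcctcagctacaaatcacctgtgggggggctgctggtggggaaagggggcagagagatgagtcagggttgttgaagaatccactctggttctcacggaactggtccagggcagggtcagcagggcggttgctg
Spag6, chr2:18698772-18699071, + strand: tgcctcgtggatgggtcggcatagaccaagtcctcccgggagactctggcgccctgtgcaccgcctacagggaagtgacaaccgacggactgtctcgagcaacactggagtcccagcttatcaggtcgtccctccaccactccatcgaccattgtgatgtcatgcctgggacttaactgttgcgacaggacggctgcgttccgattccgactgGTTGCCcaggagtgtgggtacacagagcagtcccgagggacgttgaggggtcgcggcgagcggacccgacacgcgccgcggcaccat
Cfap20dc, chr14:8666241-8666540, - strand: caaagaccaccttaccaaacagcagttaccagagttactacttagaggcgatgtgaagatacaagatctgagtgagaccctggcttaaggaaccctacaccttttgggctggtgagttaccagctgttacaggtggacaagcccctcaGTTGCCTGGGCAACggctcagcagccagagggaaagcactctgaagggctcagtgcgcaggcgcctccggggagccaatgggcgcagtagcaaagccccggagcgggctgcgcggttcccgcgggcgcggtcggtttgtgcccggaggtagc
Drc1, chr5:30281143-30281442, + strand: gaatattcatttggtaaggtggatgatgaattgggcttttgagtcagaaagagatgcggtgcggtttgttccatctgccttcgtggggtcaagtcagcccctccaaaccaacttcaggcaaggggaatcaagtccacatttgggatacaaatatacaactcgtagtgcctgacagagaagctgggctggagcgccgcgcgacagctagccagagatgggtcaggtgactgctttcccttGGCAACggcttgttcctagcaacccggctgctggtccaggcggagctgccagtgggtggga
Cfap43, chr19:47837312-47837611, - strand: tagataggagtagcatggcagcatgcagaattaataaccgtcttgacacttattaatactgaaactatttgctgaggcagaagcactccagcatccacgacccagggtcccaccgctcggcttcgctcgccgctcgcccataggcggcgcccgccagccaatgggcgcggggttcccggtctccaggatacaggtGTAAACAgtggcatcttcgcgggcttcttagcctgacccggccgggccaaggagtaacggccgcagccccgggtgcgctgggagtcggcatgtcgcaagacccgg
Efcab10 held the half-site GTTGCC, read as GGCAAC on the other strand, 140 bases before the start and again at base 28 after it. Cfap45 held GTTGCTATGGTAAC, a match to the longer spelling (GTTGC, 3 bases of any kind, GG, 1 base of any kind, AAC), beginning 19 bases before its start. Cfap20dc held GTTGCCTGGGCAAC 102 bases before its start, in which the half-site and the longer spelling overlap, and Drc1 held GGCAAC 11 bases before its start. Spag6 held GTTGCC 37 bases before its start. Cfap52 and Dnah2 held neither spelling in their windows, which says only that these letters are not there.

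Over the 59 promoter windows of the 53 cilia genes, 24 (40.7%) held GTTGCC on either strand, beside 4111 of 32851 windows (12.5%) of all genes. The longer spelling, chosen after other spellings had been tried, stood in 8 windows (13.6%), beside 146 of all windows (0.444%). The half-site was present in 4 of the 7 genes without overlap, namely Efcab10, Spag6, Cfap20dc and Drc1, and in 23 of the 53 cilia genes. The longer spelling was present in 2 of the 7 and in 8 of the 53. Because the 7 were picked by this contrast, nothing is read from these counts. The forkhead core GTAAACA stood in 3 windows (5.08%), beside 3.65% of all windows, and Cfap43 was one of the 3 genes. The GLIS core TGGGGGGT stood in 1 window (1.69%), that of Cfap44, beside 1.53% of all windows. Neither core was present in any of the 7 genes without overlap. These matches are descriptions of letters, not of binding.

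Outer dynein arms carry the heavy chains that give most of the beating force. All 5 kept heavy chain genes had a lower mean in Glis3KO2, with a median difference of -0.53, and under normexp with the 75th percentile 4 of 5 did, Dnah9 being at 0.01. Without WT replicates 3 and 4 it was 3 lower and 2 higher, Dnah5 and Dnah8, with a median of -0.14. Dnah9, a heavy chain of ciliary outer arms, had 2.32, 2.13, 3.14 and 1.50 in Glis3KO2 replicates 1 to 4, against 2.77, 2.26, 2.59 and 2.41 in WT replicates 1 to 4. Its highest and its lowest array were both Glis3KO2 arrays. The difference was -0.23 (SE 0.33). A second kept Dnah9 probe was far dimmer, with means of -4.97 in Glis3KO2 and -4.26 in WT, and gave -0.71.

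Dnah11, another ciliary outer arm heavy chain, had -0.70, -1.11, -1.17 and -1.99 in Glis3KO2 replicates 1 to 4, against -1.27, -0.93, -0.60 and 0.32 in WT replicates 1 to 4. WT replicate 4 was the highest and Glis3KO2 replicate 4 the lowest, and the others interleaved. Its difference of -0.62 (SE 0.38) was -1.24 on slide 2 and near 0 on slide 1 (4.66e-05), and -0.14 without WT replicates 3 and 4. Dnah5, mutated in human primary ciliary dyskinesia, differed by -0.54 (SE 0.47). Dnah8 and Dnah17, heavy chains of the sperm flagellum, differed by -0.53 (SE 0.55) and -0.38 (SE 0.46).

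The inner arm heavy chains gave 4 lower means and 1 higher among 5 genes, with a median of -0.33; without WT replicates 3 and 4 there were 2 lower and 3 higher, with a median of 0.23. Dnah2 had -3.25, -3.36, -3.74 and -2.97 in Glis3KO2 replicates 1 to 4, against -1.09, -1.56, -2.87 and -2.51 in WT replicates 1 to 4. The groups did not overlap, and WT replicates 1 and 2 were the highest. This probe gave a difference of -1.32 (SE 0.39), at -2.004 without WT replicates 3 and 4 and -0.51 under normexp with quantile normalization, but a second kept Dnah2 probe gave -0.034, so the 2 probes disagree. Dnah6 was higher by 0.40 (SE 0.55), with a single high array, Glis3KO2 replicate 2 at -0.87, and the other 3 Glis3KO2 arrays between -3.75 and -3.21.

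Dnah7a differed by -0.33 (SE 0.22) and was lower in all 4 numbered pairs, while its other kept probes gave 0.24 and -0.26. Dnah1 and Dnah10 differed by -0.05 (SE 0.44) and -0.34 (SE 0.77). Dnali1, a light intermediate chain of the inner arms, had -2.50, -3.44, -3.11 and -3.12 in Glis3KO2 replicates 1 to 4, against -1.57, -2.85, -1.29 and -2.76 in WT replicates 1 to 4. WT replicates 1 and 3 stood apart above the rest, and WT replicates 2 and 4 lay below the highest Glis3KO2 array. Its difference was -0.92 (SE 0.39), lower in 4 of 4 numbered pairs, -1.37 on slide 1 and -0.48 on slide 2, and -0.40 under normexp with quantile normalization.

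Assembly factors load dynein arms in the cytoplasm before transport into the axoneme. Of 7 kept genes, 5 had a lower and 2 a higher mean, with a median of -0.08, while without WT replicates 3 and 4 the split was 3 lower and 4 higher, with a median of 0.24. Dnaaf1 had -0.03, -0.58, -0.01 and -0.02 in Glis3KO2 replicates 1 to 4, against 0.86, -0.24, 0.49 and 0.25 in WT replicates 1 to 4. Only WT replicate 2 reached into the Glis3KO2 range, and the difference was -0.50 (SE 0.28).

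Dnaaf6b, a copy of the assembly factor gene Dnaaf6, had -1.91, -1.96, -2.10 and -2.16 in Glis3KO2 replicates 1 to 4, against -1.47, -2.08, -1.32 and -0.97 in WT replicates 1 to 4. Here too WT replicate 2 was the one WT array within the Glis3KO2 range. The difference was -0.58 (SE 0.26), or -0.26 without WT replicates 3 and 4, and Dnaaf6 itself differed by -0.03; whether the array probes tell the copies apart was not tested. Cfap300 was higher by 0.13 (SE 0.61) with levels from -4.22 to -2.40 in Glis3KO2 and from -4.45 to -2.10 in WT, and by 1.204 without WT replicates 3 and 4. In 2 assembly factors the probe choice mattered: Dnaaf5 was at 0.08 with its brightest probe and -0.71 with the other, and Dnaaf1 was at -0.32 with its second probe.

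**Figure D2:**
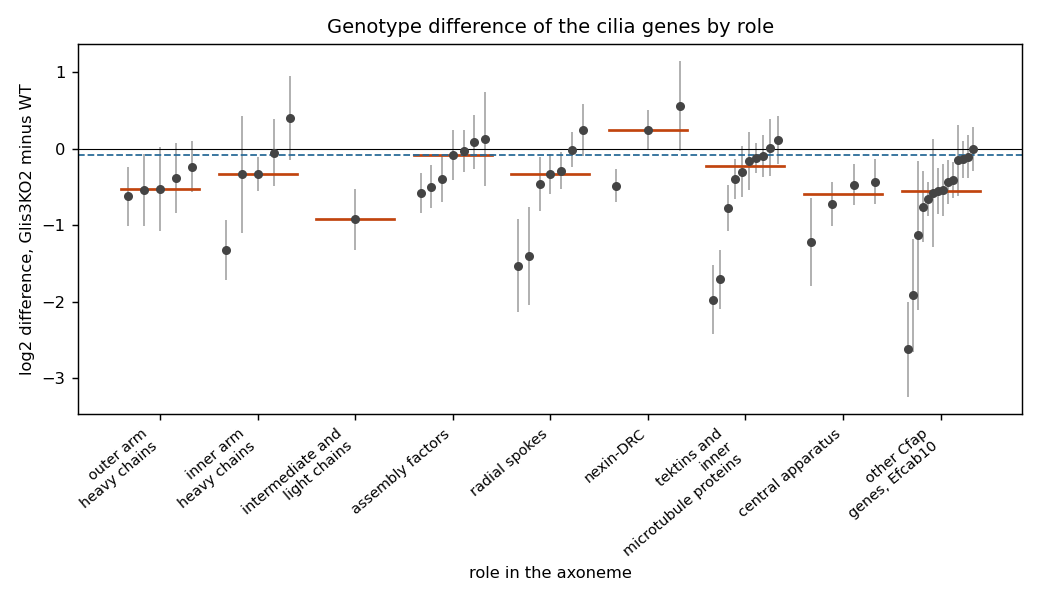
Log2 difference (Glis3KO2 minus WT) of the 56 kept cilia genes by role, as points with the standard error of the fit as bars; short lines are the median of each role, and the dashed line is the median of all 17512 genes at -0.08. The lowest point is Efcab10 at -2.62 and the highest is Drc3 at 0.56.

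Radial spokes carry signals from the central pair to the dynein arms. Of 7 kept spoke genes, 6 had a lower and 1 a higher mean, with a median of -0.33. That median was -0.14 without WT replicates 3 and 4, with 7 of 7 lower, and -0.17 under normexp with quantile normalization. Rsph1, a spoke head protein, had -3.63, -1.88, -3.67 and -2.34 in Glis3KO2 replicates 1 to 4, against -1.83, -2.81, -0.24 and -0.54 in WT replicates 1 to 4. WT replicates 3 and 4 were the highest arrays, and WT replicate 2 lay below 2 of the Glis3KO2 arrays. Its difference of -1.53 (SE 0.61) was -0.56 without WT replicates 3 and 4 and -0.74 under normexp with quantile normalization.

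Cfap206, known in Tetrahymena for its place at a radial spoke, had a similar pattern, with -5.54, -3.87, -6.21 and -6.16 in Glis3KO2 replicates 1 to 4, against -4.21, -5.58, -3.22 and -3.14 in WT replicates 1 to 4. WT replicates 3 and 4 were again highest, and the probe stood well above background on 1 Glis3KO2 array and 3 WT arrays. The difference was -1.41 (SE 0.64), at -0.55 without WT replicates 3 and 4 and -0.17 under normexp with quantile normalization. Rsph9 and Cfap61 differed by -0.46 (SE 0.35) and -0.33 (SE 0.27), and by -0.06 and -0.13 without WT replicates 3 and 4. Rsph3a, a spoke stalk protein, was higher by 0.25 (SE 0.34), or at -0.13 without WT replicates 3 and 4. Its other kept probes gave 0.48 and -0.088.

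In the nexin-dynein regulatory complex, 1 of the 3 genes had a lower mean and 2 a higher one; under normexp with the 75th percentile it was 2 lower and 1 higher. Drc1 had -2.43, -2.60, -2.62 and -2.85 in Glis3KO2 replicates 1 to 4, against -2.06, -2.37, -1.86 and -2.26 in WT replicates 1 to 4. The groups did not overlap, and the nearest arrays were 0.053 apart. Its difference of -0.48 (SE 0.21) was present on slide 1 (-0.56) and slide 2 (-0.41). Drc3 was higher by 0.56 (SE 0.59), at 1.77 on slide 1 and -0.66 on slide 2, and Drc7 was higher by 0.25 (SE 0.26), with a second kept probe at -0.30.

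Tektins and proteins inside the doublet tubules stiffen the microtubule wall. Among 10 kept genes 8 had a lower and 2 a higher mean, with a median of -0.23, and under normexp with the 75th percentile all 10 were lower. Cfap52, a protein of the doublet lumen, had -3.69, -4.18, -4.08 and -5.36 in Glis3KO2 replicates 1 to 4, against -1.54, -2.81, -3.22 and -1.84 in WT replicates 1 to 4. The groups did not overlap, and WT replicates 1 and 4 were the highest. The difference was -1.97 (SE 0.45), with 3 Glis3KO2 arrays and 4 WT arrays well above background. It was -2.15 without WT replicates 3 and 4 and -0.56 under normexp with quantile normalization.

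Cfap45, which also lies inside the doublets, had -4.04, -3.99, -4.97 and -5.28 in Glis3KO2 replicates 1 to 4, against -2.39, -2.42, -3.60 and -3.02 in WT replicates 1 to 4. The nearest arrays of the genotypes were 0.387 apart, and no array overlapped. The difference was -1.71 (SE 0.38), -1.51 on slide 1 and -1.91 on slide 2, with 2 Glis3KO2 arrays and 4 WT arrays well above background. It was -2.16 without WT replicates 3 and 4 and -0.39 under normexp with quantile normalization. Cfap53, an inner doublet protein, differed by -0.77 (SE 0.30), lower in 4 of 4 numbered pairs, and by -0.43 without WT replicates 3 and 4. Tekt4, a filament protein of the sperm flagellum, had 1.67, 1.34, 2.05 and 1.90 in Glis3KO2 replicates 1 to 4, against 2.96, 1.55, 1.90 and 1.75 in WT replicates 1 to 4. WT replicate 1 alone was above the Glis3KO2 range. Tekt4 differed by -0.30 (SE 0.33), and by 0.01 without WT replicate 1. Cfap20, of the doublet's inner junction, was higher by 0.11 (SE 0.32), or 0.33 without WT replicates 3 and 4 and -0.11 without WT replicate 1.

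The central apparatus had 4 kept genes, and all 4 had a lower mean, with a median of -0.60. The median was -0.54 without WT replicates 3 and 4, -0.27 with no background correction and -0.16 under normexp with quantile normalization. Spag6 had -4.78, -5.51, -5.76 and -4.71 in Glis3KO2 replicates 1 to 4, against -4.68, -4.66, -4.21 and -4.31 in WT replicates 1 to 4. No arrays overlapped, though the nearest were only 0.037 apart and 2 of the Glis3KO2 spots were not well above background. Its difference of -0.73 (SE 0.29) was -0.018 under normexp with quantile normalization. Spag16 had -5.51, -5.28, -7.19 and -4.33 in Glis3KO2 replicates 1 to 4, against -3.32, -5.06, -4.74 and -4.31 in WT replicates 1 to 4. Glis3KO2 replicate 3 was the lowest and WT replicate 1 the highest array, with the rest between -5.51 and -4.31. Spag16 differed by -1.22 (SE 0.58), at -2.32 on slide 1 and -0.13 on slide 2, and at -0.18 under normexp with quantile normalization. Hydin, a protein of the central pair projections whose loss causes hydrocephalus in mice, differed by -0.43 (SE 0.29), lower in 4 of 4 numbered pairs, and by -0.16 without WT replicates 3 and 4.

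The remaining Cfap genes together with Efcab10 had 14 kept genes, all 14 with a lower mean and a median of -0.55, but 11 of 14 without WT replicate 1 and 12 of 14 under either quantile normalization, with a median of -0.11 under normexp with quantile normalization. Cfap43, known from Tetrahymena and Chlamydomonas as part of a tether of an inner dynein, had -3.84, -6.13, -3.75 and -4.15 in Glis3KO2 replicates 1 to 4, against -2.52, -4.50, -1.01 and -2.17 in WT replicates 1 to 4. WT replicate 2 lay below 3 of the Glis3KO2 arrays, so the groups overlapped, although each numbered pair was lower. The difference was -1.92 (SE 0.73), with 3 Glis3KO2 arrays and 4 WT arrays well above background. It was -0.96 without WT replicates 3 and 4 and -0.60 under normexp with quantile normalization, and a second Cfap43 probe, well above background on only 3 arrays, gave -0.18. Cfap44, the partner of Cfap43 in that tether, differed by -0.15 (SE 0.46), at -0.69 without WT replicates 3 and 4 and 0.13 without WT replicate 1.

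Cfap20dc had -1.11, -1.14, -1.31 and -1.54 in Glis3KO2 replicates 1 to 4, against -0.96, -0.64, -0.31 and -0.55 in WT replicates 1 to 4. The groups did not overlap, every spot was well above background, and the difference was -0.66 (SE 0.23). Both other probes of Cfap20dc gave lower means too, at -1.08 and -0.88. Cfap36 differed by less than its error, with means of -0.02 ± 0.52 in Glis3KO2 and -0.01 ± 0.17 in WT (SD, n = 4 each). Cfap410, a protein of the ciliary base, differed by -1.14 (SE 0.98), with WT replicate 1 alone high at 3.12. Without that array it was at 0.10, and its second probe gave -0.23.

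**Figure D3:**
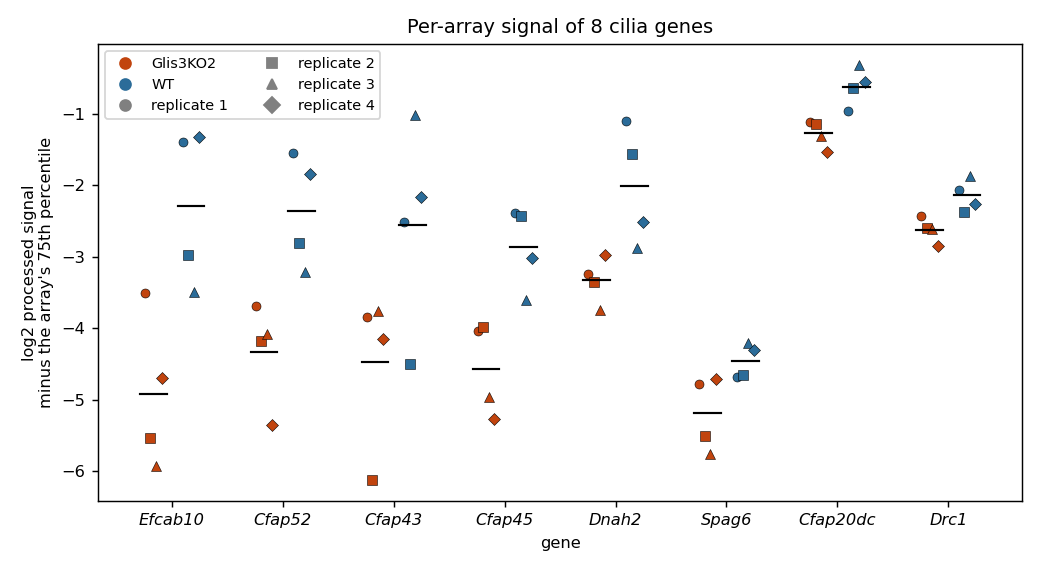
Log2 signal (processed signal minus the array's 75th percentile) of Cfap43 and the 7 genes whose genotypes did not overlap, with Glis3KO2 arrays left of WT arrays for each gene, 1 symbol per replicate number and a line at the mean of 4 arrays. The gap between the nearest arrays ranges from 0.018 (Efcab10) to 0.468 (Cfap52), and in Cfap43 the genotypes overlap.

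Genes that switch on motile ciliogenesis were set beside the structural genes. Of 13 listed regulators 11 were kept, each on all 8 arrays, and 10 had a lower mean (median -0.34). None of them passed limma's adjusted threshold, which 0 of all 17512 genes passed. Without WT replicate 1 only 6 of 11 were lower, with a median of -0.18. Without WT replicates 3 and 4 it was 8 of 11, with a median of -0.26. Foxj1 had -2.63, -2.23, -1.85 and -2.63 in Glis3KO2 replicates 1 to 4, against 0.22, -2.51, -2.38 and -2.98 in WT replicates 1 to 4. WT replicate 1 stood far above every other array, and the other 3 WT arrays were in or below the Glis3KO2 range. Rfx3 likewise had its highest value in WT replicate 1 (1.91) and lay between -0.86 and -0.35 in Glis3KO2 and between -0.64 and -0.07 in the other 3 WT arrays. Mcidas and Gmnc, master regulators of multiciliated cells, had no named probe.

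Other motile cilia genes that the symbol rule does not name, 27 kept of 36, had 21 lower and 6 higher means, with a median of -0.22. None passed limma's adjusted threshold, nor did any of all 17512 genes. Without WT replicates 3 and 4 it was 15 lower and 12 higher, with a median of -0.04. The largest differences were those of Spa17, at -1.28 (SE 0.53), and Ropn1l, at -1.06 (SE 0.58), both sperm flagellum proteins. Stk36 at -0.79 (SE 0.64) and Dynlrb2 at -0.74 (SE 0.36) followed. In Stk36, WT replicate 3 alone was high at -0.82, with the other WT arrays between -4.1 and -3.3. In Dynlrb2, WT replicate 1 was highest at -1.47, with the other WT arrays between -3.12 and -2.59. Intraflagellar transport and basal body genes, which immotile primary cilia also use, had 34 of 34 genes kept on all 8 arrays, with 15 lower and 19 higher means and a median of 0.07. Under normexp with the 75th percentile, which moved the median of all genes to -0.23, these became 22 lower and 12 higher. Ift122 was at -0.69, while Bbs7, Bbs5 and Ift22 were at 0.80, 0.66 and 0.65. Like every other gene of the series, none of the list passed limma's adjusted threshold.

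**Figure D4:**
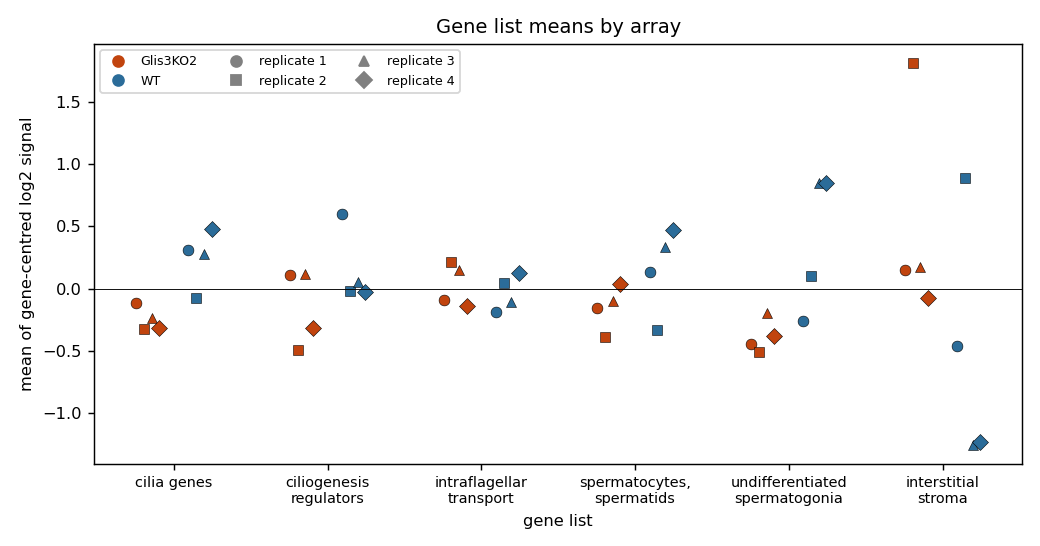
Mean of gene-centred log2 signal of each gene list by array, with Glis3KO2 arrays left of WT arrays and 1 symbol per replicate number. The cilia genes lie between -0.33 and -0.12 in Glis3KO2 and between -0.08 and 0.48 in WT; the ciliogenesis regulators are highest in WT replicate 1 (0.60), and the undifferentiated spermatogonia markers are highest in WT replicates 3 and 4 (0.85 each).

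Markers of testis and neighbouring cell types, whether or not such a sample holds them, differed between the arrays as well. The 14 markers of undifferentiated spermatogonia, 13 of them well above background on all 8 arrays, all had a lower mean in Glis3KO2 (median -0.80), and 11 of 14 did without WT replicates 3 and 4 (median -0.30). Their centred mean was between -0.51 and -0.20 in the Glis3KO2 arrays, against -0.26, 0.10, 0.85 and 0.85 in WT replicates 1 to 4. General germ cell markers were lower for 6 of 6 kept genes (median -0.92), and without WT replicates 3 and 4 for 4 of 6 (median -0.06). Spermatocyte and spermatid markers were kept for 15 of 16 genes, 14 of them lower (median -0.35), and without WT replicates 3 and 4 11 were lower and 4 higher (median -0.10). Of these 15 genes 14 were well above background on all 8 arrays. All samples are of postnatal day 4, and such a signal does not show that spermatocytes or spermatids were present.

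Multiciliated epithelium was represented by 5 kept markers of 10, all with a lower mean (median -0.34), but 1 of 5 without WT replicate 1 (median 0.07). All 5 were lower without WT replicates 3 and 4 (median -0.63). Sntn was not kept, and Mcidas, Gmnc, Cdhr3 and Cdhr4 had no named probe. Markers of the efferent duct and mesonephric epithelium went the other way, with 7 of 8 higher in Glis3KO2 (median 0.72). The same held for interstitial stroma with 9 of 9 higher (median 0.91), peritubular myoid cells with 5 of 5 (median 1.02), macrophages with 7 of 7 (median 0.44) and endothelium with 3 of 4 (median 0.49). Without WT replicates 3 and 4 these medians were 0.32, 0.34, 0.32, -0.21 and -0.24 in that order. Sertoli cell markers were lower for 8 of 10 genes (median -0.26), but for 4 of 10 without WT replicates 3 and 4 (median 0.04). Leydig cell markers were lower for 5 of 5 genes (median -0.49), but for 1 of 5 without WT replicate 1 (median 0.06). All 5 Leydig markers were lower without WT replicates 3 and 4 (median -0.95). None of these markers passed limma's adjusted threshold, which 0 of all 17512 genes passed. The part of the germ cell, multiciliated cell and stromal signals in the cilia gene differences was not tested.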

How the data were processed

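RNA of Thy1-positive testis cells was hybridised to 8 one-colour Agilent arrays, 4 Glis3KO2 and 4 WT. Per the file headers, the deposited files come from Agilent Feature Extraction 12.0.0.7 and hold per spot a processed intensity, background-subtracted on a linear scale, the medians of the spot and of its local background, also as intensities, and quality flags. The series' deposited value table is identical to that processed intensity (100% of spots), hence linear and uncentred (column medians 67.2 to 143.6). RefSeq accessions linked the probes to genes of the GRCm38.p6 gene table.

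Values here are log2 processed signal minus the 75th percentile of each array's non-control spots (243 to 533 units). Outlier-flagged spots (73 to 109 per array) were left out, 0 spots were saturated, and replicate spots were averaged. Each gene was represented by its brightest kept probe: 18 of the 56 cilia genes had several kept probes, and 4 of these (Dnah7a, Dnaaf5, Drc7 and Rsph3a) differed in sign. Genes were fitted with limma 3.58.1 in R 4.3.3 (lmFit, eBayes, genotype as the only term, Benjamini-Hochberg over 17512 genes, threshold 0.05), and the code was tested on simulated data. The number of arrays limits the precision. The cilia genes, the role groups and the lists were chosen with earlier results of these data known.

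Genes named are Glis3, Cfap43, Cfap45 and Cfap52, in each role group the gene of highest mean signal and those of lowest and highest difference, and every gene whose genotypes do not overlap. From each other list at most 4 of largest difference were named. Dnah1, Dnah5, Dnah8, Dnah10, Dnah17, Dnaaf5, Dnaaf6, Rsph9, Cfap44, Cfap53, Cfap61, Cfap65, Cfap206 and Cfap410 were added after their values were seen.

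Slide 1 held replicates 1 and 3 of both genotypes, and slide 2 held replicates 2 and 4. WT arrays had positions 1 and 2 and Glis3KO2 arrays positions 3 and 4 on both, so position and genotype cannot be told apart. Deviations of same-numbered arrays from their group means correlated across genes at 0.16, 0.34, 0.18 and 0.13, all over the 0.1 set for pairing. Glis3KO2 replicate 3 with WT replicate 4 (0.12) and Glis3KO2 replicate 4 with WT replicate 3 (0.14) also passed 0.1, and the number is thus not singled out there. Since every same-numbered pair passed, a blocked fit by replicate number was run beside the unblocked one. Alternatives covered background correction (normexp with offset 50 on the median spot signal, since the mean spot signal is not among the columns used), scaling, filters, probe choice, blocks, array weights and arrays left out.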

Additional observations from a re-analysis of the deposited data

Results flagged for a closer look

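In 7 of 112 groups of 4 arrays (56 kept cilia genes in 2 genotypes), 1 array lay apart from the other 3 by more than 0.829 of the group's range, and chance does so in about 1 in 20 groups. In Glis3, examined too, neither genotype had such an array. In Cfap410, WT replicate 1 was at 3.12 and the other WT arrays between -1.86 and -1.80. In Cfap43, Glis3KO2 replicate 2 was at -6.13 and the other Glis3KO2 arrays between -4.15 and -3.75. The same array was the low one in Dnaaf1, at -0.58 (others between -0.026 and -0.0087), and in Dnaaf6, at -2.92 (others between -2.22 and -2.12). WT replicate 2 was low in Cfap61, at -1.69 (others between -0.97 and -0.90), and in Cfap65, at -3.87 (others between -3.23 and -3.11). In Dnah8, Glis3KO2 replicate 4 was high, at -0.26 (others between -2.67 and -2.28).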

How the results depend on the processing

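The median difference of the cilia genes, -0.40, was -0.63 under normexp with the 75th percentile, -0.13 under normexp with quantile normalization and -0.23 on the median spot signal with no background correction, while the median of all genes was -0.23, -0.03 and -0.09. The share of lower means among all genes was 66.4% under the first of these, where 51 of 56 cilia genes were lower. The count of 7 genes without overlap, all lower, was 14, 4 and 3 under these settings in that order, beside 6.25%, 2.34% and 1.66% of all genes lower without overlap. It was 3 among genes well above background on all 8 arrays, beside 2.45%. With fewer arrays groups overlap less by construction. Replicates 1 and 2 alone gave 23 genes, 20 lower and 3 higher, beside 16.45% and 14.98% of all genes. Replicates 3 and 4 alone gave 35, 31 lower and 4 higher, beside 32.3% and 17.2%. Slide 1 alone gave 26, 23 lower and 3 higher, beside 25.6% and 14.0%, and slide 2 alone 21, all lower, beside 14.98%. Without WT replicates 3 and 4 it was 8 lower and 1 higher, beside 5.705% and 5.448%, and 7 to 15 when 1 array was left out (15 without WT replicate 2, where 10.6% of all genes were lower without overlap). Leaving out 1 array moved the median between -0.48 (WT replicate 2 left out) and -0.30 (Glis3KO2 replicate 2 left out), and the count of lower means between 43 and 48. Limma's count over all genes, 0, became 1 with quantile normalization of the processed signal and 1210 at an unadjusted p under 0.05, and it stayed at 0 with any 1 array left out. In the fit with a replicate block the median and the counts of cilia genes equal those without it, since each pair holds 1 array of each genotype, and 1879 genes had an unadjusted p under 0.05. That number was 2534 with array weights, 1639 under normexp with the 75th percentile, 843 with no background correction and 664 to 2411 with 1 array left out, lowest without WT replicate 3 and highest without WT replicate 2. Of 26 genes named by the rule, Glis3 included, 15 kept the sign of their difference in all alternatives run (25 or 26 each), and 11 did not: Cfap20, Cfap300, Cfap36, Dnah11, Dnah6, Dnah7a, Dnah9, Drc3, Drc7, Rsph3a and Tekt4. Many of the 26 were picked for the size of their difference or for not overlapping. Where genotypes do not overlap, leaving out arrays cannot change the sign, so nothing is read from this tally. The cause of the shifts between settings was not tested. Of the 56 kept cilia genes, 11 had a spot not well above background on some array.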
